A study of Mus musculus with 6 samples.

Results

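Solute carriers are the membrane proteins that move ions, metals, vitamins, sugars, nucleotides and other small molecules across the plasma membrane and the membranes of organelles. This account covers the solute carrier genes of mouse bone marrow-derived dendritic cells that lie outside the main amino acid, hexose and monocarboxylate families. Members were the genes whose symbol begins with Slc and a number, less the families Slc1a, Slc2a, Slc3a, Slc7a, Slc16a and Slc38a and the genes Slc5a3, Slc6a6, Slc40a1 and Slc48a1. They also had to reach 1 TPM (a length-scaled share of all transcripts of a sample) in at least 3 of 6 samples. Of 384 genes with such symbols, 67 were left out by name and 153 of the other 317 by level, which left 164 of the 12539 genes tested.

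The cells were grown from bone marrow of C57BL/6J mice and sequenced in 2 groups of 3 samples. The lysine group had received 18 mM lysine, a cationic amino acid, for 6 h. The PBS group had received phosphate-buffered saline for 6 h. The labels do not say whether replicates were separate cultures or animals, so the p-values speak for the spread among these samples alone, part or all of which may be technical.

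Carriers differ in where they sit and in which direction they move their substrate. The Slc25 family serves the inner mitochondrial membrane, the Slc35 family serves mainly the Golgi apparatus and endoplasmic reticulum, and Slc30 and Slc39 proteins lower and raise cytosolic zinc. In dendritic cells, carriers of endosomes and lysosomes are known for linking digestion of engulfed material to metabolism and to nucleic acid sensing. The label of the set as one outside amino acid transport held only in part. The symbols left in 15 genes that carry amino acids, such as Slc43a2, Slc36a1 and Slc66a1, and 3 genes that encode no carrier. Those 3 are Slc4a1ap, named for its link to Slc4a1, and Slc9a3r1 and Slc9a3r2, whose products are scaffolds that bind carriers.

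Members were chosen by their TPM over all 6 samples regardless of group. At least 1 TPM was listed in all 6 samples for 147 members, and 7 members reached it in 1 group only. These 7 had to differ to be included, so their values are given below without a test. Just inside the limit, the highest level reached by 3 of the 6 samples was 1 TPM for Slc9b1, 1.02 TPM for Slc13a3 and 1.03 TPM for Slc12a2. Just outside, it was 0.93 TPM for Slc35g1 and 0.91 TPM for Slc45a3.

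Between 12277 and 12449 genes reached 1 TPM per sample. The depth is unknown, because TPM keeps none, and a gene's TPM also depends on all other genes of its sample. Correlations of log2(TPM + 1) were 0.974 to 0.982 within groups and 0.914 to 0.934 between groups. Of 9 tested dendritic cell markers, 1 rose (Cd86) and 1 fell (Batf3), so 22.2% were called, against 55.1% of all genes tested. Their summed level was 4606 to 6279 TPM with lysine and 4303 to 6617 TPM with PBS, with Itgax at 378 ± 6.54 and 364 ± 19.4 TPM (SD, n = 3 each). Cd209a was near 0 in both groups, at means of 0.087 and 0.027 TPM. Macrophage markers summed to 837 to 872 TPM with lysine and 996 to 1088 TPM with PBS. Of these 9 markers, 5 fell (55.6%, against 29.3% of all genes tested). The 4 that did not pass included the most abundant. Neutrophil markers summed to 36.3 to 44.6 TPM with lysine and 77.0 to 116 TPM with PBS, with Elane listed at 0 in all samples. Most of the neutrophil sum came from 1 gene, the only fall among 3 tested, and the other 2 did not pass. Erythroid markers summed to 2.01 to 2.86 TPM with lysine and 2.08 to 5.06 TPM with PBS, with no call in 1 tested. Lymphocyte markers summed to 2.72 to 16.5 TPM with lysine and 6.06 to 22.6 TPM with PBS, with no call in 3. Mast cell and basophil markers summed to 3.92 to 5.31 TPM with lysine and 5.35 to 11.3 TPM with PBS, with 1 fall in 2. The part of these shifts in the results below was not tested. In bulk samples, fewer cells of a type and less RNA per cell cannot be told apart.

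The largest rise was that of the thiamine transporter gene Slc19a2 and the largest fall that of Slc43a2, which encodes a carrier of neutral amino acids. Over the 157 members with at least 1 sample of each group at 1 TPM, 41 rose with lysine, 50 fell and 66 did not pass (limma on log2(TPM + 1), adjusted p under 0.05). Across all genes tested, 55.1% were called, 25.8% higher and 29.3% lower, so the share of these members called (58.0%) was near the background. The groups did not overlap for 99 of the 157, against 63.4% of all genes tested. Lysine lay above PBS in 44 of them and below it in 55, against 29.7% and 33.7% of all genes tested. The median log2 fold change was -0.076 for the 157 and -0.050 for all genes tested. Changes of at least 1 on the log2(TPM + 1) scale were called in 7 of the 157 upward and 13 downward, against 6.28% and 6.75% of all genes. The summed level of all 164 members was 4271, 4246 and 4295 TPM in the lysine samples, against 4350, 4377 and 4437 TPM in the PBS samples. That total made up 0.425% to 0.429% of TPM with lysine and 0.435% to 0.444% with PBS.

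**Figure D1:**
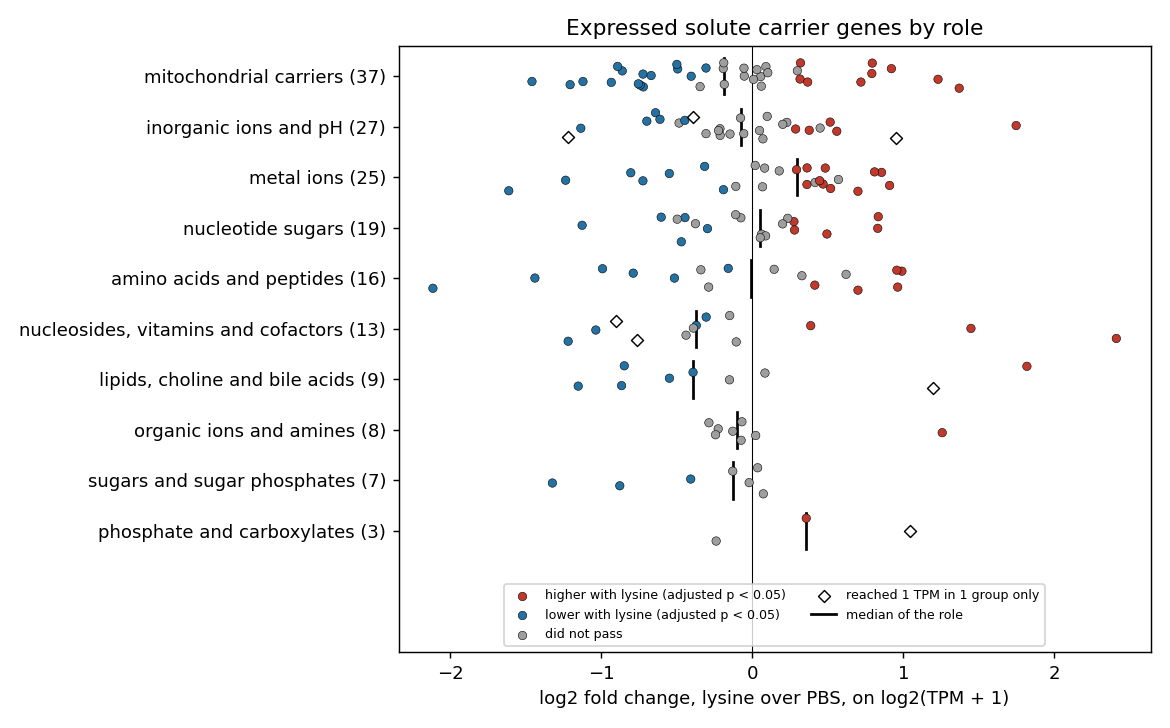
Log2 fold change (lysine over PBS, log2(TPM + 1) scale, x axis) of each of 164 members, in rows by the main substrate or site of its family with the number of genes, including 3 that encode no carrier. Red and blue points passed the test, and white diamonds reached 1 TPM in 1 group only. Black bars are medians of all genes of a row, diamonds included, so some differ from medians in the text that leave out genes. Slc19a2 lies farthest to the right at 2.41 and Slc43a2 farthest to the left at -2.12.

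Upstream sequence was set beside the expression of 4 members to show what precedes genes that moved strongly in either direction. The 250 bases before the RefSeq start (GRCm38.p6) are given for Slc19a2, the largest rise, and for Slc23a3 and Slc49a4, both also higher by over 1 on the log2(TPM + 1) scale. Slc25a1, a mitochondrial carrier gene that fell, completes the set. Capitals mark matches, on either strand, to the core letters of 6 motifs. CACGTG is the E-box bound by MiT/TFE factors, and TGACNNNGC belongs to the antioxidant response element. ACGTG is the hypoxia response element, while TGCACNC and its variant form TGCGCNC belong to the metal response element. TGATGNAA is the element bound by ATF4 with C/EBP factors. The hypoxia letters lie inside those of the E-box.
Slc19a2, chr1:164248796-164249045, + strand: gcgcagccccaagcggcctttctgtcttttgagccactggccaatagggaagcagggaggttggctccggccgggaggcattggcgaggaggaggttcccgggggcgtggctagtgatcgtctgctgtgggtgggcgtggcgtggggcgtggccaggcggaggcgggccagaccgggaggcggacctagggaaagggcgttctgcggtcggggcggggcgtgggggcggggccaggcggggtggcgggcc
Slc23a3, chr1:75133891-75134140, - strand: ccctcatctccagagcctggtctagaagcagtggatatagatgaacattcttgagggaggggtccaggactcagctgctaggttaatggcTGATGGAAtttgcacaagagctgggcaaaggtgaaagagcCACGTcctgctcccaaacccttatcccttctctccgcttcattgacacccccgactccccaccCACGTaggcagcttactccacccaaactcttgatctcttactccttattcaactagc
Slc49a4, chr16:35769371-35769620, - strand: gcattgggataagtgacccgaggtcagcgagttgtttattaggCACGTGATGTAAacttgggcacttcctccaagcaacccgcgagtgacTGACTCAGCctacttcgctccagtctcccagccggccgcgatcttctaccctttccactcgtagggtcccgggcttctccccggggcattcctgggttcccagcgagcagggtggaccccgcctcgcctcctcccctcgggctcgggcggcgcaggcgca
Slc25a1, chr16:17928220-17928469, - strand: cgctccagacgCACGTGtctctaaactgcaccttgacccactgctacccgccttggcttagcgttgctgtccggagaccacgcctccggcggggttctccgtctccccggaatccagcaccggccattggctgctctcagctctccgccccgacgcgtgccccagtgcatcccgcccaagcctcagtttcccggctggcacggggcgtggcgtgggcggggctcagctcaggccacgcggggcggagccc

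In the Slc49a4 window, CACGTG began 207 bases before the start and its last letters TG were also the first of a match to TGATGNAA. TGACNNNGC followed, beginning 160 bases before the start. The Slc25a1 window held CACGTG 239 bases before the start, and none of the letters searched were found in the Slc19a2 window. RefSeq windows matched 126 of 164 members, with 172 windows in all. CACGTG was present in 6.02% of 32851 windows of all genes, in 7 of 43 windows of members called higher, in 7 of 55 called lower and in 9 of 74 that did not pass. TGACNNNGC was present in 10.2% of all windows, in 13 of 43 windows of members called higher, in 5 of 55 called lower and in 11 of 74 that did not pass. TGATGNAA was present in 3.45% of all windows, in 3 of 43 called higher, 1 of 55 called lower and 1 of 74 that did not pass. ACGTG was found in 16.6% of all windows, in 13 of 43 called higher, 11 of 55 called lower and 15 of 74 that did not pass. TGCACNC was found in 10.4% of all windows, in 3 of 43 called higher, 4 of 55 called lower and 14 of 74 that did not pass. TGCGCNC was found in 12.5% of all windows, in 7 of 43 called higher, 10 of 55 called lower and 15 of 74 that did not pass. Some members had several windows. A match of letters is not a site of binding.

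Of 11 nucleoside, vitamin and cofactor carriers at 1 TPM in both groups, 3 rose, 4 fell and 4 did not pass. Their median log2 fold change was -0.31, and 63.6% were called, against 55.1% of all genes tested. Slc19a2, the plasma membrane thiamine transporter, had 56.5, 59.24 and 42.02 TPM in the lysine samples, against 8.32, 10.04 and 8.63 TPM in the PBS samples. Every lysine sample was over 4 times any PBS sample, a 5.85-fold difference of means (log2 fold change 2.41 ± 0.14 SE, adjusted p = 6.3e-05). Slc19a2 lies on chromosome 1, 164249046 to 164265385 in GRCm38. Slc23a3, a relative of the vitamin C transporters, had 5.87, 4.92 and 6.45 TPM with lysine and 1.84, 1.19 and 1.4 TPM with PBS. It rose by 1.45 ± 0.15 on the log2 scale (adjusted p = 0.00038; chromosome 1, 75125541 to 75133890). Slc23a2, the vitamin C importer itself, did not pass (39.1 ± 4.30 and 43.5 ± 4.87 TPM; SD, n = 3 each).

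Both riboflavin transporter genes fell. Slc52a3 had 3.01, 2.05 and 2.81 TPM with lysine and 7.22, 6.96 and 8.01 TPM with PBS (log2 fold change -1.22 ± 0.13, adjusted p = 0.00051). Slc52a2 had 1.58, 1.7 and 2.07 TPM with lysine and 4.7, 4.68 and 4.71 TPM with PBS (log2 fold change -1.04 ± 0.11, adjusted p = 0.00047). The groups were apart by a wide margin for both, although both genes were lowly expressed. Slc19a1, which carries folates, did not pass, with overlapping groups (2.56 ± 0.436 and 3.97 ± 1.46 TPM, adjusted p = 0.17). Without PBS replicate 1 it passed as lower (log2 fold change -0.70, adjusted p = 0.018). The folate transporter gene Slc46a1 was at 1.53 ± 0.983 TPM with lysine and 1.65 ± 0.661 TPM with PBS and did not pass either.

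Among nucleoside carriers, Slc29a3, which serves lysosomes and mitochondria, rose to 39.31, 39.15 and 43.98 TPM with lysine, against 29.16, 28.64 and 35.47 TPM with PBS (log2 fold change 0.39 ± 0.10, adjusted p = 0.016). The call was lost without PBS replicate 1 (adjusted p = 0.058) or 2 (adjusted p = 0.057). The plasma membrane nucleoside importer genes Slc28a2 and Slc29a2 passed the level limit through the PBS group only. Slc28a2 had 0.63, 0.55 and 0.75 TPM with lysine and 1.79, 1.89 and 1.68 TPM with PBS, and Slc29a2 had 0.45, 0.48 and 0.72 against 1.45, 3.17 and 1.37 TPM. Slc29a1, a more abundant gene of the Slc29 family, fell to 19.9 ± 2.99 TPM, against 25.9 ± 1.72 TPM with PBS (adjusted p = 0.036). The fall of Slc29a1 was lost in 7 of the 13 alternative settings. Slc33a1, which carries acetyl-CoA into the endoplasmic reticulum, fell slightly to 16.9 ± 1.54 TPM, against 21.1 ± 0.499 TPM with PBS (adjusted p = 0.020). This call was lost without PBS replicate 1 (adjusted p = 0.050) or 2 (adjusted p = 0.068).

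**Figure D2:**
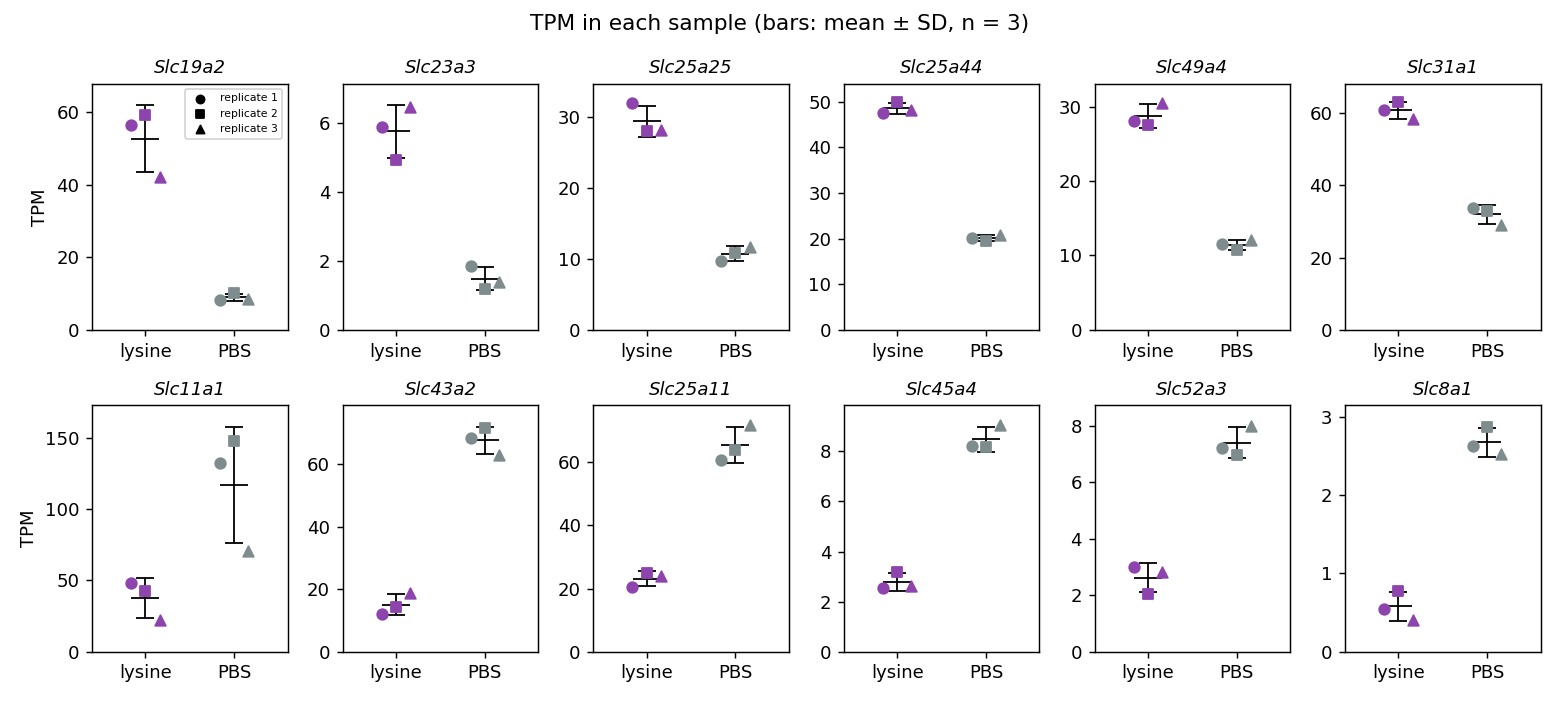
TPM (y axis, from 0) of 12 carrier genes in each lysine sample (purple) and PBS sample (grey), with replicate numbers as symbols and bars for the mean ± SD (n = 3). The genes were chosen among called members whose groups do not overlap, so the groups are apart in every panel by choice. Slc8a1 reached 1 TPM with PBS only. Both replicates numbered 3 are the lowest of their group for Slc11a1 (21.88 TPM with lysine, 70.74 TPM with PBS).

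The mitochondrial carrier family Slc25 was the largest, with 37 members. Of these, 15 fell, 9 rose and 13 did not pass, with a median log2 fold change of -0.19. That put 24.3% higher and 40.5% lower, against 25.8% and 29.3% of all genes tested. A group of 6 carriers of di- and tricarboxylates, aspartate or glutamate all fell (Slc25a1, Slc25a10, Slc25a11, Slc25a12, Slc25a13 and Slc25a22). This group was made after the values were seen and need not hold every such carrier, so its count cannot be set against the share of all genes. Slc25a11, the oxoglutarate-malate carrier, had 20.6, 24.89 and 24.04 TPM with lysine and 60.78, 63.88 and 71.77 TPM with PBS (log2 fold change -1.46 ± 0.098, adjusted p = 8.6e-05; chromosome 11, 70644196 to 70647479). Slc25a1, which exports citrate from mitochondria, had 19.91, 17.56 and 21.6 TPM with lysine and 44.18, 46.43 and 49.4 TPM with PBS (log2 fold change -1.21 ± 0.091, adjusted p = 0.00012; chromosome 16, 17925223 to 17928219). In both genes the highest lysine sample was below any PBS sample by a factor of 2 or more. The aspartate-glutamate carriers of the malate-aspartate shuttle fell as well, Slc25a12 to 15.1 ± 0.415 TPM against 34.2 ± 1.997 TPM and Slc25a13 to 6.61 ± 0.591 TPM against 11.6 ± 0.766 TPM. Of Slc25a11 exonic bases, 8.92% overlap exons of Rnf167 on the opposite strand, and whether counting used strand was not stated.

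Carriers of adenine nucleotides and phosphate, which feed ATP synthesis, included the most abundant members. Slc25a5, an ADP/ATP exchanger, was the highest of all, with 408.72, 409.82 and 482.25 TPM with lysine and 480.4, 468.04 and 533.47 TPM with PBS. It did not pass (adjusted p = 0.10), but passed as lower without lysine replicate 3 (adjusted p = 0.018), with the replicate block (0.011) and under quantile normalization (0.029). The phosphate carrier gene Slc25a3 did not pass either (336 ± 17.5 and 349 ± 23.1 TPM, adjusted p = 0.53), except under quantile normalization (0.025). Slc25a4, another ADP/ATP exchanger, fell to 82.94, 86.82 and 86.18 TPM with lysine, against 154.35, 160.12 and 163.34 TPM with PBS (log2 fold change -0.89 ± 0.051, adjusted p = 5.4e-05). The calcium-regulated ATP-Mg/phosphate carriers moved apart. Slc25a25 rose to 32.01, 28.13 and 28.19 TPM with lysine, against 9.73, 10.86 and 11.77 TPM with PBS (log2 fold change 1.37 ± 0.095, adjusted p = 9.6e-05; chromosome 2, 32414487 to 32451445). Slc25a24 fell to 24.1 ± 0.431 TPM, against 32.3 ± 2.17 TPM with PBS (adjusted p = 0.0031).

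The other strong rise of the family was Slc25a44, which imports branched-chain amino acids into mitochondria. It had 47.67, 49.91 and 48.12 TPM with lysine and 20.18, 19.47 and 20.76 TPM with PBS (log2 fold change 1.23 ± 0.060, adjusted p = 3.3e-05), and lies at 88410498 to 88425139 of chromosome 3. Replicates were tight and the groups far apart. Of 8 carriers of iron, vitamins, glutathione and nucleotides, also grouped after the values were seen, 5 rose and 3 did not pass. Of all genes tested, 25.8% rose, but a group made after the values were seen cannot be set against that share. Slc25a37, the iron importer mitoferrin-1, rose to 62.03, 59.06 and 48.09 TPM with lysine, against 36.91, 34.41 and 25.54 TPM with PBS (log2 fold change 0.79 ± 0.16, adjusted p = 0.0056). Its relative Slc25a28, mitoferrin-2, did not pass (18.0 ± 3.08 and 20.5 ± 1.07 TPM, adjusted p = 0.24). Slc25a39, the mitochondrial glutathione importer, rose to 119.6 ± 4.71 TPM, against 92.9 ± 10.2 TPM (log2 fold change 0.37 ± 0.086, adjusted p = 0.011).

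Carriers of cationic amino acids and of fatty acid intermediates in mitochondria were modest. Slc25a29, a carrier of lysine and arginine, was near the level limit, with 0.96, 1.17 and 0.97 TPM with lysine and 1.38, 1.38 and 2.04 TPM with PBS. The groups did not overlap, but the gene did not pass (log2 fold change -0.35 ± 0.15, adjusted p = 0.093), except without the variance trend (0.049). The ornithine carrier gene Slc25a15 was at 1.99 ± 0.450 and 2.40 ± 0.193 TPM and did not pass (adjusted p = 0.30). Slc25a20, the carnitine-acylcarnitine carrier, fell to 18.4 ± 1.33 TPM, against 26.4 ± 0.902 TPM with PBS (adjusted p = 0.0018). Among 19 genes of mitochondrial transport outside Slc25, 2 rose, 11 fell and 6 did not pass (median -0.40). Of these 19, 68.4% were called, against 55.1% of all genes tested. Mcu, the calcium uniporter, rose to 12.4 ± 0.924 TPM, against 5.76 ± 0.389 TPM, and the fatty acid oxidation gene Cpt2 fell to 3.38 ± 0.833 TPM, against 10.2 ± 0.806 TPM with PBS. The pyruvate carrier genes Mpc1 and Mpc2 did not pass.

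**Figure D3:**
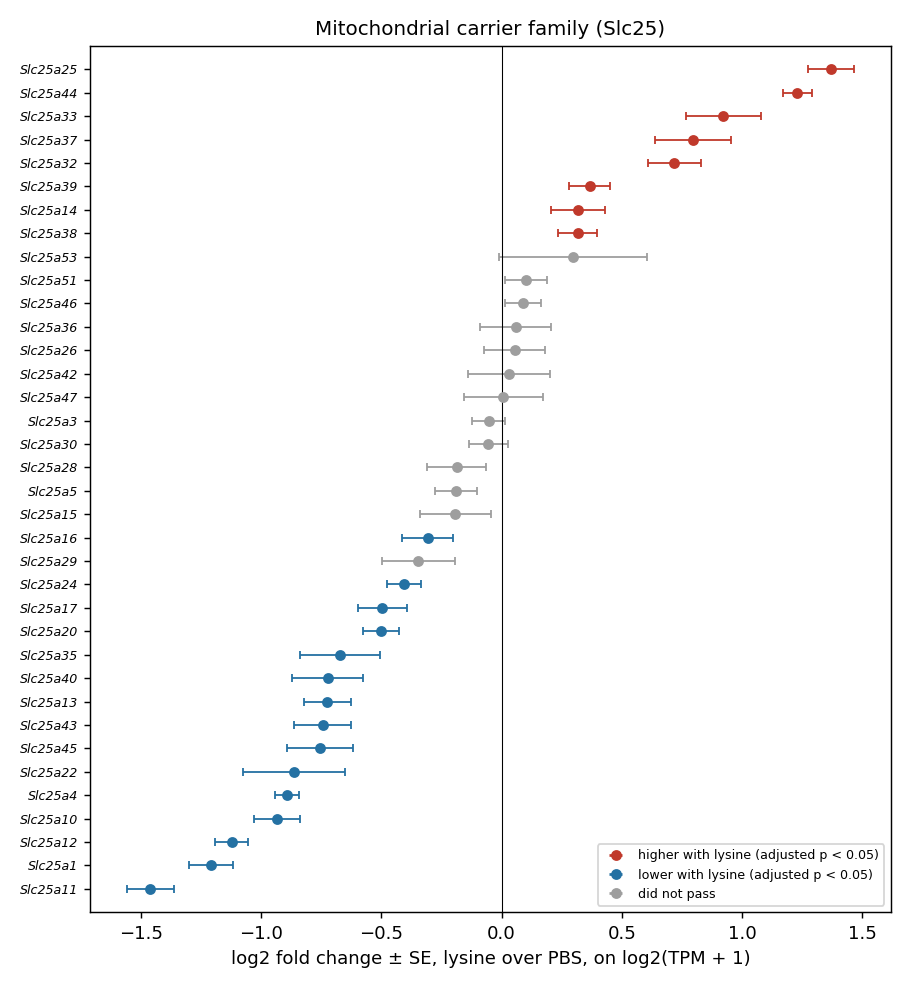
Log2 fold change ± SE (lysine over PBS, log2(TPM + 1) scale, x axis) of 36 of the 37 expressed Slc25 genes, ordered by value. Red points passed as higher (8), blue as lower (15) and grey did not pass (13); Slc25a25 stands at 1.37 and Slc25a11 at -1.46.

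Of 25 metal ion carriers, 11 rose, 7 fell and 7 did not pass, with a median log2 fold change of 0.29. That put 44% higher and 28% lower, against 25.8% and 29.3% of all genes tested. Both members of the copper transporter family Slc31 rose. Slc31a1, the high-affinity copper importer CTR1, had 60.85, 62.98 and 58.14 TPM with lysine and 33.8, 32.79 and 29.06 TPM with PBS (log2 fold change 0.91 ± 0.076, adjusted p = 0.00017; chromosome 4, 62360727 to 62391769). Its relative Slc31a2 rose to 86.3 ± 7.48 TPM, against 66.9 ± 5.32 TPM with PBS (adjusted p = 0.014), a call lost under quantile normalization. The copper exporter Atp7a, no member, fell to 7.30 ± 0.199 TPM, against 15.4 ± 0.823 TPM (adjusted p = 0.00015).

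The NRAMP metal transporters of phagosomes and endosomes went opposite ways. Slc11a1, whose product is known for removing divalent metals from the phagosome of macrophages, had 48.5, 42.89 and 21.88 TPM with lysine and 132.46, 147.88 and 70.74 TPM with PBS. RNA levels do not show whether these cells make a working transporter. The groups did not overlap, and replicate 3 was the lowest of both. The log2 fold change was -1.61 ± 0.37 (adjusted p = 0.010; chromosome 1, 74375195 to 74386062), and the ratios of same-numbered samples were 0.366, 0.290 and 0.309. Beside it, the 9 macrophage markers summed to 837 to 872 TPM with lysine and 996 to 1088 TPM with PBS. Of them, 5 fell, none rose and 4 did not pass, while 29.3% of all genes tested fell. The part of these markers in the fall of Slc11a1 was not tested. Replicate 3 also held the highest summed dendritic cell markers of both groups, 6279 TPM with lysine and 6617 TPM with PBS, and this too was not tested. Slc41a3 and Slc39a8 were the other members at least 1.5-fold lower in replicate 3 than in the rest of both groups, and neither passed the test. Slc11a2, the endosomal iron transporter DMT1, rose to 48.04, 47.69 and 37.82 TPM with lysine, against 23.85, 27.02 and 21.47 TPM with PBS (log2 fold change 0.86 ± 0.12, adjusted p = 0.0015).

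Zinc carriers divided within both families. Of 12 Slc39 genes, whose products bring zinc into the cytosol, 4 rose, 3 fell and 5 did not pass. Of 6 Slc30 genes, whose products move zinc out of it, 3 rose, 2 fell and 1 did not pass. The shares called were 58.3% for Slc39 and 83.3% for Slc30, against 55.1% of all genes tested. Slc39a7, which releases zinc from the endoplasmic reticulum, was the most abundant at 179.94, 186.78 and 185.62 TPM with lysine and 138.08, 137.42 and 123.4 TPM with PBS (log2 fold change 0.47 ± 0.061, adjusted p = 0.00094). Most exonic bases of Slc39a7 (80.7%) also belong to the readthrough model Gm20427, whose mean was 3.13 TPM. Slc39a4, a plasma membrane zinc importer, fell to 4.49, 5.67 and 7.31 TPM with lysine, against 15.47, 12.75 and 16.61 TPM with PBS (log2 fold change -1.24 ± 0.17, adjusted p = 0.0013). Slc39a1 fell slightly to 69.6 ± 2.39 TPM, against 79.6 ± 1.17 TPM (adjusted p = 0.020). That call was lost without lysine replicate 2 (adjusted p = 0.068), PBS replicate 1 (0.065) or PBS replicate 2 (0.053) and under median-of-ratios scaling (0.062). Slc30a1, the zinc exporter of the plasma membrane and a classic target of the zinc sensor MTF1, did not pass, with 5.44, 6.21 and 5.39 TPM with lysine and 5.18, 5.35 and 6.27 TPM with PBS (adjusted p = 0.90). The metallothionein gene Mt1, which encodes a zinc-binding protein, fell to 1210.54, 1155.69 and 1064.76 TPM with lysine, against 3130.91, 3251.52 and 3205.41 TPM with PBS. Of 11 genes of zinc and copper handling outside the carrier families, 1 rose, 5 fell and 5 did not pass. Their median log2 fold change was -0.24, and the share called (54.5%) was near that of all genes tested (55.1%).

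**Figure D4:**
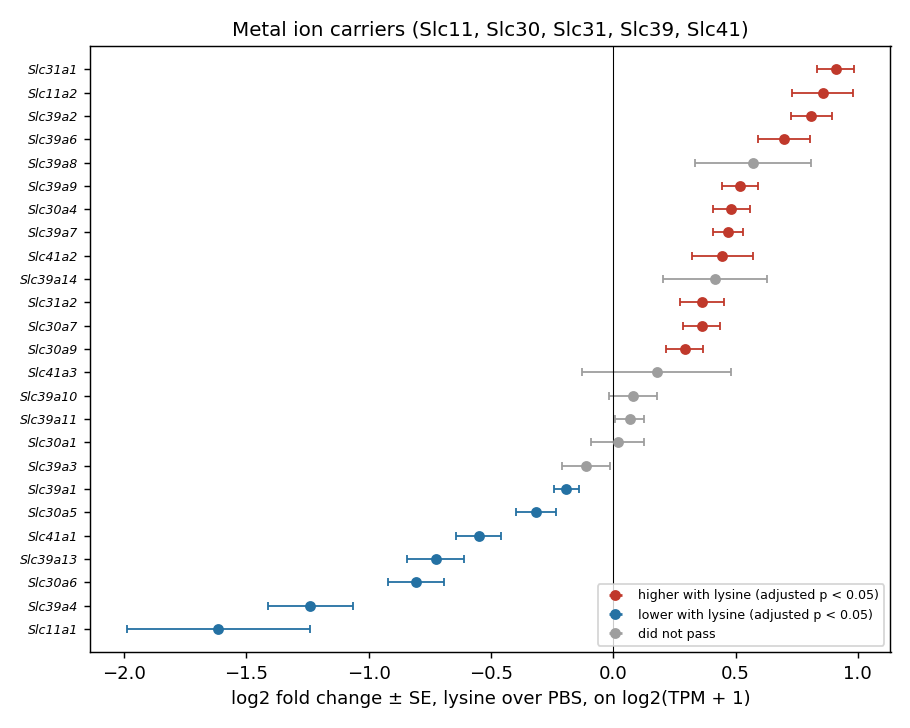
Log2 fold change ± SE (lysine over PBS, log2(TPM + 1) scale, x axis) of 25 expressed metal ion carrier genes, ordered by value. Red points passed as higher (11), blue as lower (7) and grey did not pass (7); Slc31a1 stands highest at 0.91 and Slc11a1 lowest at -1.61 with the widest error.

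There were 21 carriers of inorganic ions and pH at 1 TPM in both groups, without the 3 genes that encode no carrier. Of these, 4 rose, 5 fell and 12 did not pass (median log2 fold change -0.15). The share called was 42.9%, against 55.1% of all genes tested. Slc9a8, a sodium-proton exchanger of the Golgi apparatus and endosomes, fell to 5.45, 4.71 and 5.95 TPM with lysine, against 13.72, 12.64 and 12.55 TPM with PBS (log2 fold change -1.14 ± 0.10, adjusted p = 0.00024). Slc4a7, a sodium-bicarbonate cotransporter, fell to 7.36 ± 0.839 TPM, against 11.8 ± 1.52 TPM with PBS (adjusted p = 0.0066). The scaffold gene Slc9a3r1 was among the most abundant rows and rose to 147.3 ± 2.39 TPM, against 102.8 ± 3.43 TPM (adjusted p = 0.00031).

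Slc26a11, a sulfate and anion carrier, showed the largest rise of this role. It had 8.81, 12.34 and 15.74 TPM with lysine and 2.96, 2.4 and 3.3 TPM with PBS (log2 fold change 1.75 ± 0.21, adjusted p = 0.00066; chromosome 11, 119355557 to 119381079). Its lysine samples differed among themselves by more than the PBS samples did, but none came near them. The sodium-calcium exchanger gene Slc8a1 passed the level limit through PBS only, with 0.54, 0.78 and 0.41 TPM with lysine and 2.62, 2.87 and 2.52 TPM with PBS. Slc9a5 likewise had 0.9, 0.65 and 0.84 TPM with lysine and 1.41, 1.07 and 1.62 TPM with PBS. In the opposite direction, Slc9b1 was listed at 1, 1 and 1.34 TPM with lysine and 0.1, 0.18 and 0 TPM with PBS. Slc8b1, the mitochondrial sodium-calcium exchanger, rose to 71.95 ± 2.83 TPM, against 55.2 ± 1.43 TPM with PBS (adjusted p = 0.0017).

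The cation-chloride cotransporters of family Slc12, which regulate cell volume, held no call among 5 members, while 55.1% of all genes tested were called. Their log2 fold changes ran from -0.49 to 0.23, and Slc12a2, the importer NKCC1, was at 1.41, 1.42 and 1.03 TPM with lysine and 0.92, 0.9 and 1.02 TPM with PBS. Its groups were next to each other without overlap, and it did not pass (adjusted p = 0.196). Among 15 regulators of chloride, volume and pH outside the carrier families, 6 rose, 1 fell and 8 did not pass. Their median log2 fold change was 0.12, and 46.7% were called, against 55.1% of all genes tested. Lrrc8d, a subunit of the volume-regulated anion channel, rose to 165.58, 172.85 and 177.67 TPM with lysine, against 54.71, 61 and 62.48 TPM with PBS (log2 fold change 1.52 ± 0.068, adjusted p = 2.7e-05). The other Lrrc8 genes of the list, Lrrc8a, Lrrc8b and Lrrc8c, did not pass. Wnk1, a kinase that controls the Slc12 cotransporters, rose to 106.6 ± 3.98 TPM, against 78.6 ± 4.94 TPM with PBS (adjusted p = 0.0017). The 1 fall of the list was that of Oxsr1, to 10.1 ± 0.709 TPM, against 13.8 ± 0.146 TPM with PBS (adjusted p = 0.0044). Stk39 did not pass.

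The next 16 members are of families that hold mainly amino acid and peptide carriers, together with carriers such as those of creatine and sialic acid. Of these, 5 rose, 6 fell and 5 did not pass (median log2 fold change -0.0079). The share called was 68.8%, against 55.1% of all genes tested. Slc43a2, the carrier LAT4 of branched-chain amino acids, methionine and phenylalanine, had 12.06, 14.42 and 18.61 TPM with lysine and 68.28, 71.65 and 62.97 TPM with PBS. Every PBS sample was over 3 times any lysine sample, a difference of means of 4.50-fold (log2 fold change -2.12 ± 0.15, adjusted p = 9.7e-05; chromosome 11, 75531694 to 75577575). Of its exonic bases, 9.18% overlap the antisense model Gm45606. Its relative Slc43a3 did not pass (25.8 ± 1.47 and 23.3 ± 1.995 TPM, adjusted p = 0.1995).

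Proton-coupled carriers of the Slc36 family moved apart. Slc36a4 rose to 43.69, 45.61 and 39.54 TPM with lysine, against 21.73, 21.73 and 19.84 TPM with PBS (log2 fold change 0.99 ± 0.079, adjusted p = 0.00014). Slc36a1, the lysosomal amino acid carrier PAT1, fell to 22.31, 22.16 and 21.15 TPM, against 30.52, 31.34 and 33.32 TPM with PBS (log2 fold change -0.52 ± 0.065, adjusted p = 0.00084). Slc36a2, a lowly expressed relative, fell to 2.31 ± 0.545 TPM, against 7.92 ± 0.476 TPM with PBS (adjusted p = 0.00036). Slc66a1, which exports lysine and arginine from lysosomes, fell to 7.34, 8.34 and 8.91 TPM with lysine, against 14.1, 15.54 and 14.96 TPM with PBS (log2 fold change -0.79 ± 0.094, adjusted p = 0.00067; chromosome 4, 139294029 to 139310708). Slc66a2, of the same family, rose to 39.9 ± 0.255 TPM, against 20.1 ± 0.436 TPM with PBS (adjusted p = 6.1e-05). All samples of these genes lay on 1 side of the other group.

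The creatine transporter gene Slc6a8 rose to 133.2, 128.75 and 115.13 TPM with lysine, against 69.93, 68.95 and 54.09 TPM with PBS (log2 fold change 0.96 ± 0.11, adjusted p = 0.00066). Slc17a5, which exports sialic acid from lysosomes, rose to 17.82, 19.1 and 17.86 TPM, against 13.39, 13.37 and 13.6 TPM with PBS (adjusted p = 0.0025). The betaine and osmolyte carrier gene Slc6a12 did not pass (49.98 ± 4.03 and 61.6 ± 8.20 TPM, adjusted p = 0.068).

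Peptide-histidine carriers of endolysosomes are known in immune cells for letting bacterial peptide ligands reach the cytosol. Slc15a3 was among the most abundant members, at 228.68, 222.26 and 246.03 TPM with lysine and 255.23, 256.08 and 267.18 TPM with PBS. The groups lay close without overlap, and the fall was small (log2 fold change -0.16 ± 0.056, adjusted p = 0.049). It was lost in 8 of 13 alternative settings (adjusted p from 0.075 to 0.16), 5 of them without lysine replicate 1 or 2 or PBS replicate 1, 2 or 3 (0.097 to 0.16). Exons of Tmem132a on the opposite strand cover 28.1% of its exonic bases. Slc15a4, which also serves as the platform for the adaptor TASL in activation of IRF5, had 32.44, 23.12 and 27.76 TPM with lysine and 14.37, 34.23 and 20.66 TPM with PBS. The groups overlapped and it did not pass (adjusted p = 0.38), but without PBS replicate 2 it passed as higher (log2 fold change 0.64, adjusted p = 0.044). Of 8 tested genes of nucleic acid sensing, not all of them partners of endolysosomal carriers, 1 rose, 4 fell and 3 did not pass. Their median log2 fold change was -0.14, and 62.5% were called, against 55.1% of all genes tested. Tlr8, an RNA sensor, fell to 5.57 ± 0.731 TPM, against 19.7 ± 3.07 TPM with PBS (adjusted p = 0.00019).

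Among 8 members of families that carry organic ions and amines, 12.5% were called, against 55.1% of all genes tested. The only call was that of Slc49a4, a carrier of the lysosomal membrane. It rose to 28.12, 27.52 and 30.52 TPM with lysine, against 11.48, 10.77 and 12.04 TPM with PBS (log2 fold change 1.26 ± 0.077, adjusted p = 6.7e-05; chromosome 16, 35694062 to 35769356). Among the 6 Slc22 members, carriers of organic cations, carnitine and anions, log2 fold changes ranged from -0.24 to 0.022 and none passed. A chosen list of Slco and other carriers with names outside the Slc series held 9 tested genes. Of these 9, 6 rose, 0 fell and 3 did not pass (median log2 fold change 0.48). The share called was 66.7%, against 55.1% of all genes tested. Carriers outside this list also fell, such as Sfxn3 (log2 fold change -0.91) and Abcb8 (-0.97), while Mpc1 and Mpc2 did not pass. Within the list, the organic anion transporter gene Slco4a1 rose to 89.6, 80.53 and 65.53 TPM with lysine, against 13.92, 12.5 and 15.66 TPM with PBS (log2 fold change 2.40 ± 0.13, adjusted p = 5.2e-05). The lysosomal lysophospholipid exporter gene Spns1 rose to 90.05 ± 10.4 TPM, against 32.6 ± 2.09 TPM with PBS, and the lysosomal cysteine importer gene Mfsd12 to 201.71, 211.17 and 225.51 TPM, against 92.87, 96.03 and 112.79 TPM with PBS.

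Of 19 members of Slc35, mostly nucleotide sugar carriers of the Golgi apparatus and endoplasmic reticulum, 5 rose, 5 fell and 9 did not pass. Their median log2 fold change was 0.052, and the share called (52.6%) was near that of all genes tested (55.1%). The largest fall was that of Slc35f6, a less studied member, which had 32.52, 34.97 and 37.57 TPM with lysine and 74.94, 71.12 and 87.63 TPM with PBS (log2 fold change -1.13 ± 0.097, adjusted p = 0.00019). Slc35a3, which supplies UDP-N-acetylglucosamine to the Golgi apparatus, fell to 7.70 ± 0.266 TPM, against 12.2 ± 0.887 TPM with PBS (adjusted p = 0.0013). Slc35e3 rose to 10.4 ± 0.485 TPM, against 5.42 ± 0.573 TPM, and Slc35e4 to 21.7 ± 1.86 TPM, against 11.7 ± 0.711 TPM with PBS. Slc35a4, the most abundant of the family, fell to 95.99 ± 6.14 TPM, against 118.4 ± 11.1 TPM with PBS (adjusted p = 0.024). That call was lost without lysine replicate 1 (adjusted p = 0.058) or 3 (0.055) and without PBS replicate 1 (0.068) or 3 (0.050), under median-of-ratios scaling (0.062) and with no level filter (0.051).

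Of 6 members of families that carry sugars and sugar phosphates, without the multivitamin transporter gene Slc5a6, 3 fell, 0 rose and 3 did not pass. Their median log2 fold change was -0.27, and the share called (50%) was near that of all genes tested (55.1%). Slc45a4, of a family of proton-coupled sugar carriers, had 2.56, 3.19 and 2.62 TPM with lysine and 8.22, 8.17 and 9.04 TPM with PBS (log2 fold change -1.32 ± 0.11, adjusted p = 0.00016). Slc37a2, a glucose-6-phosphate exchanger of the endoplasmic reticulum known from macrophages, fell to 9.5, 9.54 and 10.66 TPM with lysine, against 17.23, 18.09 and 22.04 TPM with PBS (log2 fold change -0.88 ± 0.11, adjusted p = 0.00083). The groups were clearly apart for both genes. The summed macrophage markers were lower with lysine, as given above, and their part in the fall of Slc37a2 was not tested.

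Among 8 carriers of lipids, choline and bile acids at 1 TPM in both groups, 5 fell, 1 rose and 2 did not pass. Their median log2 fold change was -0.47, and 75% were called, against 55.1% of all genes tested. Slc10a3, an orphan of the bile acid transporter family, fell to 6.25, 5.92 and 5.89 TPM with lysine, against 15.78, 14.54 and 13.6 TPM with PBS (log2 fold change -1.15 ± 0.087, adjusted p = 0.00012). Of its exonic bases, 12.8% overlap the neighbouring gene Ubl4a on the same strand. Fatty acid transport proteins diverged, with Slc27a1 lower at 10.6 ± 0.361 TPM with lysine and 20.2 ± 1.96 TPM with PBS (adjusted p = 0.00042). Slc27a6 rose to 10.46, 11.45 and 5.35 TPM with lysine, against 1.74, 2.14 and 1.4 TPM with PBS (log2 fold change 1.82 ± 0.27, adjusted p = 0.0016). The lowest lysine sample, replicate 3, was still above all PBS samples. The choline transporter gene Slc44a1 did not pass (7.61 ± 1.37 and 7.05 ± 0.264 TPM, adjusted p = 0.63). Slc10a1, the bile acid importer of hepatocytes, passed the level limit through lysine only, at 2.37, 1.76 and 1.39 TPM with lysine and 0.26, 0.3 and 0.12 TPM with PBS.

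The phosphate importer gene Slc20a1, which is also known as a retrovirus receptor, rose to 119.06, 104.59 and 120.39 TPM with lysine, against 95.33, 85.34 and 87.11 TPM with PBS (log2 fold change 0.36 ± 0.077, adjusted p = 0.0078). The phosphate exporter gene Xpr1 rose beside it, to 18.6 ± 1.11 TPM, against 10.9 ± 0.355 TPM with PBS. Slc20a2 did not pass (4.31 ± 0.714 and 5.23 ± 0.177 TPM, adjusted p = 0.15). The dicarboxylate carrier gene Slc13a3 passed the level limit through lysine only, with 2.84, 4.68 and 1.02 TPM with lysine and 0.98, 0.71 and 0.49 TPM with PBS.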

How the data were processed

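RNA sequencing of 3 lysine and 3 PBS samples was analysed from a table of TPM deposited by the authors, with 55740 gene rows. RSEM gave the abundances per the series' design text. Per the submitters' processing notes, HISAT2, StringTie, RSEM, edgeR and GRCm38.p6 were used, with no role, setting or strandedness stated. TPM keeps no depth, so no counting error is given. Columns lettered K were taken as lysine. A gene was tested if 3 or more samples held 1 TPM, with limma (version 3.58.1, R 4.3.3) and an intensity trend on log2(TPM + 1), which understates changes of low genes. P-values were adjusted by Benjamini-Hochberg over all 12539 genes, and adjusted p under 0.05 was called. Errors are SD for TPM and SE for log2 fold changes. The 13 alternatives were a replicate block, another pseudocount (0.1), 2 other level filters, median-of-ratios scaling, quantile normalization, no variance trend and leaving out each of the 6 samples.

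The members, roles, lists and motifs were chosen with earlier results of these data known. Named genes were up to 2 of the largest called rises and falls per role without overlap of groups, the 10 most abundant and a fixed set. The others named were chosen after their values were seen. Positions come from GENCODE M21 (GRCm38), which held all 164 members. A few members and markers are not reported here by name, though they count in the totals.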

Additional observations from a re-analysis of the deposited data

How the results depend on the processing

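Counts of calls stayed within 1.5 times of those reported under all 13 alternatives. Over all 164 members, the 7 at 1 TPM in 1 group only included, those called higher ranged from 37 to 47 and lower from 45 to 55, against 44 and 53 as fitted, the lowest count of rises being under a filter of 5 TPM, which tested 123 members. No called member turned direction, 76 of 97 kept their call wherever tested, and 21 lost it in at least 1 setting. Leaving out 1 sample gave 38 to 47 higher and 45 to 54 lower members, and 5851 to 6969 calls over all genes. The replicate numbers correlated in deviation by 0.171, 0.092 and 0.245, each sample best with its own number, a hint from the data only. A replicate block gave 46 higher and 55 lower members and 7339 calls over all genes. Median-of-ratios scaling gave 45 and 47 members, and 3567 higher and 3466 lower genes. Signs turned on leaving out 1 sample in 3 named members that did not pass: Slc30a1 (-0.037 to 0.090), Slc46a1 (-0.41 to 0.087) and Slc25a3 (-0.092 to 0.00038) on the log2 scale. The unknown depth limits all members near 1 TPM.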
